A study of Mus musculus with 12 samples.

Results

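H3K4me3, trimethylation of lysine 4 of histone H3, was examined at the genes of 3 sterol transporters, Npc1l1, Abcg5 and Abcg8, in mouse small-intestinal epithelium. The genes fall in 2 mm9 windows, selected on the covered lengths, calls and ranks of H3K4me3 peaks in these same libraries. The Npc1l1 window runs on chromosome 11 from 6118000 to 6137000, and that of the promoter shared by Abcg5 and Abcg8 on chromosome 17 from 85073000 to 85090000. Merging the peaks of all libraries wherever they overlapped or touched gave 24352 regions, of which 5 lie in these windows, 2 at Npc1l1 and 3 at Abcg5 and Abcg8. The longest region of each window is called its domain here. The Npc1l1 domain spans 6123145 to 6131777 and the Abcg5-Abcg8 domain spans 85077991 to 85085096.

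Chromatin came from E12.5 and E14.5 embryonic epithelium, sorted as EpCAM-positive cells without CD31 and CD45, from Lgr5-EGFP-high adult stem cells (ISC), and from adult enterocytes. All mice were of a mixed C57BL/6 and CD1 background, and both adult groups came from males of postnatal day 60 that carry the Lgr5EGFP-Cre-ERT allele, in which the Lgr5 locus drives EGFP. Each group has 2 ChIP libraries, called biological duplicates in the design text, made from 250000 sorted cells. The number of animals behind a library is not given in the labels. The gate described for enterocytes names EpCAM, CD31 and CD45 and no enterocyte marker, so other epithelial cells may be among them, and cell identity was not checked against marker genes, since no mm9 annotation was used here. The total tags of a ChIP library ran between 12821255 tags in enterocyte replicate 1 and 43259380 tags in E14.5 replicate 1. The 2 libraries of a group shared 1 input as control, so that group and input cannot be told apart.

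NPC1L1 sits in the apical membrane of enterocytes and takes up cholesterol and plant sterols from the gut lumen; it is the target of the drug ezetimibe. ABCG5 and ABCG8 form an obligate heterodimer, an ATP-driven pump that returns sterols, plant sterols above all, to the lumen. Loss of either partner causes sitosterolaemia. The mark itself is found at the starts of active and poised genes, and its breadth around a start varies widely between genes.

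Abcg5 and Abcg8 lie head to head. Their RefSeq starts in GRCm38.p6 are 110 bp apart on opposite strands, and their promoter sequences, from 250 bases before to 50 after the start, share 209 bases. The promoters are shown since each has a start that the domains are named for. They were not placed on mm9, so their position within the domains is not analysed here. Capitals mark matches on either strand to the motifs searched: the TATA box as TATAAA, the CCAAT box as CCAAT, the GC box as GGGCGG, the GATA factor motif as AGATAA, a part of the HNF1 motif as GTTAAT, the HNF4 motif as CAAAGTCCA, the CDX motif as TTTATG, the sterol regulatory element as TCACNCCAC, and the direct repeat bound by LXR. All 3 genes were matched by symbol in the RefSeq promoter table, build GRCm38.p6. Npc1l1 is at chr11:6230196-6230495 on the minus strand, Abcg5 at chr17:84682962-84683261 on the minus strand, and Abcg8 at chr17:84682871-84683170 on the plus strand.
Npc1l1 promoter: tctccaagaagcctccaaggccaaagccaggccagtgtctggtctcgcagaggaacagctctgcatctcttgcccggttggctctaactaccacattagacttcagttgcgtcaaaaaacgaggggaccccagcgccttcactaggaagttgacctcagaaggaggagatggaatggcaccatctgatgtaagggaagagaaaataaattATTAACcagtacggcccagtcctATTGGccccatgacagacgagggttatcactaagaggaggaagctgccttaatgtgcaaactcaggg
Abcg5 promoter: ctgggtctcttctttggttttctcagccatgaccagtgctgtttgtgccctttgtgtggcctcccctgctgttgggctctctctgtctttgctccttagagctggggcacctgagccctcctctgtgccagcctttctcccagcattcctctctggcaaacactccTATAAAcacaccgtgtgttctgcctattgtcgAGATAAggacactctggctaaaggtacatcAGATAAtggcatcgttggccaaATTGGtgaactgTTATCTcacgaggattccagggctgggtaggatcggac
Abcg8 promoter: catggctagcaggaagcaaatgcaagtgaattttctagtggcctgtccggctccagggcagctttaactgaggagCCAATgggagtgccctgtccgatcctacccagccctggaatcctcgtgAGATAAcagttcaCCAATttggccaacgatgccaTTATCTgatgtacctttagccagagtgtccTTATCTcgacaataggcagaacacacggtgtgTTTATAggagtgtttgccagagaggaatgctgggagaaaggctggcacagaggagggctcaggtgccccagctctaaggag

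The Abcg5 and Abcg8 promoters hold the same 3 AGATAA matches and the same TATAAA match in the stretch they share. AGATAA was in 11.2% of the 32817 promoters of the RefSeq table, and 0.107% held 3 or more matches. TATAAA was in 13.6%. Npc1l1 holds 1 GTTAAT match, a motif found in 7.1% of promoters, and 1 CCAAT match, found in 37.4%. Abcg5 has 1 CCAAT match, which lies in the shared stretch, and Abcg8 has that one and 1 more. None of these 3 promoters holds the GC box (35.6% of promoters), the CDX motif (11.9%), the sterol regulatory element (1.24%), the HNF4 motif (0.475%) or the LXR repeat (0.0152%) in these letters. Npc1l1 has 7 CpG dinucleotides, Abcg5 has 5 and Abcg8 has 6, against a median of 7 over all promoters. RefSeq also gives Abcg8 a second start, which has 21 CpG in the same window length and none of the motifs.

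Both domains were long in enterocytes and absent from every embryonic list, and they differed in stem cells: the Abcg5-Abcg8 domain was present in both ISC libraries and the Npc1l1 domain in 1, as a short peak. That difference in stem cells rests on weak peaks: with peaks under a −log10 q of 10 left out, both domains were at 0 bp in ISC, and in lists cut to the strongest 11111 peaks the Abcg5-Abcg8 domain was in 1 ISC library and the Npc1l1 domain in neither. In ISC replicate 2, the library that lists both, the −log10 q was 6.25 at Npc1l1 and 5.04 at Abcg5-Abcg8. Since the loci were chosen with these values known, the lengths below are a description, and no test of them was made.

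Peaks in both enterocyte libraries and in no embryonic library were found for 2 of the 2 domains, against 4.19% of the 17679 regions called in at least 2 libraries. Peaks in both ISC libraries and in no embryonic library were found for 1 of the 2, Abcg5-Abcg8, against 2.10% of regions. Both enterocyte libraries were longer than both ISC libraries for 2 of the 2, against 15.9% of regions. The domains were chosen for such patterns, so these shares only say how common each pattern is.

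**Figure D1:**
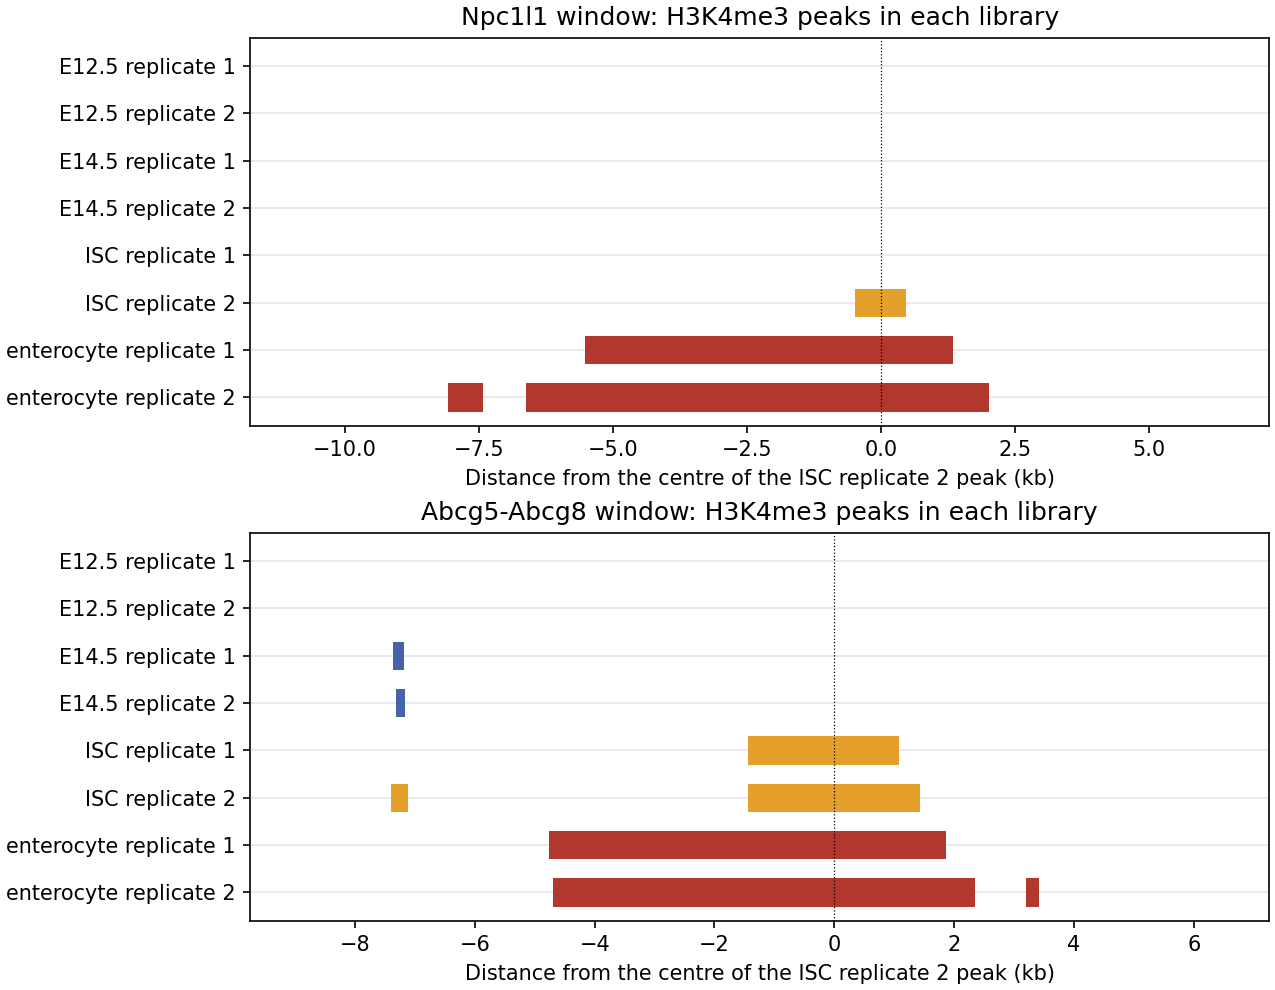
H3K4me3 peaks of each library (rows) in the Npc1l1 window (top) and the Abcg5-Abcg8 window (bottom), placed by distance in kb from the centre of the ISC replicate 2 peak of the domain, with lower mm9 positions to the left. Enterocyte domain peaks span 6618 to 8633 bp, the ISC peaks at the dotted line span 949 to 2875 bp, and no embryonic peak lies there. Enterocyte replicate 2 also has a peak of 660 bp (top) and one of 222 bp (bottom) outside the domains.

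At Npc1l1, the uptake transporter, the enterocyte lists held a domain peak of 6861 bp in replicate 1 and 8633 bp in replicate 2. Replicate 2 held a second peak of 660 bp, 806 bp below the domain. In ISC, replicate 1 listed no peak and replicate 2 listed a peak of 949 bp. No peak overlapped the window in any E14.5 or E12.5 library. The covered length of the window therefore averaged 8077 bp ± 1720 in enterocytes and 474.5 bp ± 671 in ISC (SD, n = 2 each), and the 2 groups did not overlap. The ISC mean rests on 1 library: replicate 1 had 13355462 tags and replicate 2 had 25547814. Lengths were also compared on the log2 scale of scaled covered bp with a pseudocount of 200 bp. There the domain was longer in enterocytes than in ISC by 4.11 ± 0.75 (SE from limma over all 4 groups, n = 2 each). Without ISC replicate 1 the change was 2.92. The SE also pools the embryonic libraries, all at 0 bp in the domain. It is smaller than the SD within the adult groups alone, so it understates their spread. The pseudocount sets much of the change, which was 5.20 with 50 bp and 2.68 with 1000 bp. Without ISC replicate 2, ISC is at 0 bp and no change is given.

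At Abcg5 and Abcg8, the efflux pump, enterocytes had a domain peak of 6618 bp in replicate 1 and 7048 bp in replicate 2, against 2531 bp and 2875 bp in ISC. The domain's length averaged 6833 bp ± 304 in enterocytes and 2703 bp ± 243 in ISC (SD, n = 2 each), so that the gap between the groups was larger than the spread within either. The log2 change in scaled covered bp was 1.32 ± 0.13 (SE from limma, enterocyte minus ISC). Among 10387 regions called in all 4 adult libraries, where the median change was 0.01, it ranked 140, in the top 1.35%. The SE of this change also pools the embryonic libraries, all at 0 bp in the domain, and draws on the spread of other regions. Within the adult groups alone the SD was 0.06 on this log2 scale.

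No embryonic library listed a peak in the Abcg5-Abcg8 domain. A short region 2366 bp below it, from 85075350 to 85075624, had another pattern. It was 275 bp long in ISC replicate 2 and 187 bp long in E14.5 replicate 1, and E14.5 replicate 2 listed it from 85075433 to 85075577, shorter still. It was listed in neither enterocyte library, neither E12.5 library and not in ISC replicate 1. Its −log10 q was 3.76 in ISC replicate 2, 3.19 in E14.5 replicate 1 and 1.92 in E14.5 replicate 2. It ranked 14514 by width in the ISC list and 16064 and 17350 in the E14.5 lists, among the narrowest peaks of each. Another short region, of 222 bp, lay 845 bp above the domain in enterocyte replicate 2. With these included, mean coverage of the whole window was nil for E12.5, 166 ± 29.7 bp for E14.5, 2840.5 ± 438 bp for ISC and 6944 ± 461 bp for enterocytes (mean ± SD of 2 libraries).

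**Figure D2:**
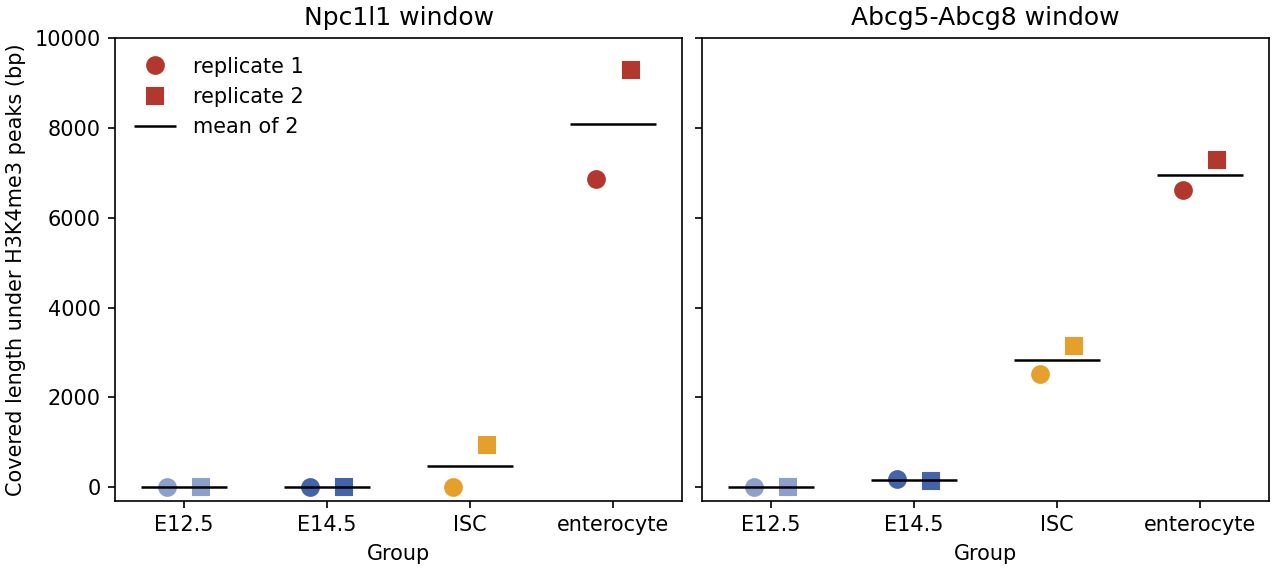
Covered length under H3K4me3 peaks in bp (vertical axis) in each window, by group, for each library (circles replicate 1, squares replicate 2), with the mean of 2 libraries as a line. Both enterocyte libraries lie above both ISC libraries in each window, and the embryonic libraries lie at 0 to 187 bp.

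Enterocyte replicate 1, with 12821255 total tags the shallowest library, listed both domains, and E14.5 replicate 1, with 43259380 total tags the deepest, listed neither. The part of depth in these calls was not tested. A missing peak is one that the authors' caller did not report, not a site shown to lack the mark.

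Within their own lists the enterocyte peaks ranked higher by width than by −log10 q, the authors' significance score of a peak against its input. The windows were chosen with the widths known. Other peaks of like width were not compared, so this order is not shown to be particular to these loci. In enterocyte replicate 1 the Npc1l1 peak ranked 15 by width and 963 by −log10 q among 11650 peaks. In enterocyte replicate 2 it ranked 10 by width and 4903 by −log10 q among 17007 peaks. The Abcg5-Abcg8 peak ranked 18 by width and 2040 by −log10 q in replicate 1, and 29 and 6941 in replicate 2. All 4 enterocyte peaks were thus within the widest 0.171% of their list, while by −log10 q they lay between the top 8.27% and the top 40.8%. By fold enrichment over input they lay between the top 4.97% and the top 25.1%, each higher than by −log10 q.

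In the ISC lists the Abcg5-Abcg8 peak was among the wider peaks and among the weaker ones by −log10 q. It ranked 734 by width among 13213 peaks of ISC replicate 1 and 751 among 15617 of replicate 2, in the widest 5.56% and 4.81%. By −log10 q it ranked 10902 and 11944, at 82.5% and 76.5% of those lists. The Npc1l1 peak of ISC replicate 2 ranked 9366 by width and 11368 by −log10 q. The authors' −log10 q for Abcg5-Abcg8 was 14.89 in enterocyte replicate 1, 29.8 in enterocyte replicate 2, 3.34 in ISC replicate 1 and 5.04 in ISC replicate 2. For Npc1l1 it was 17.72 in enterocyte replicate 1, 38.27 in enterocyte replicate 2 and 6.25 in ISC replicate 2. The authors' fold enrichment over input was 8.09 and 10.78 for Npc1l1 and 7.32 and 9.31 for Abcg5-Abcg8 in enterocytes; it was 3.86 for Npc1l1 in ISC replicate 2, and 3.59 and 3.27 for Abcg5-Abcg8 in ISC. These peak values and ranks each describe a peak within its own list, and since depth, input and list length differ, no change between groups is read from them. A broad peak's length can vary with its enrichment over the input, and the part of enrichment in these lengths was not tested.

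**Figure D3:**
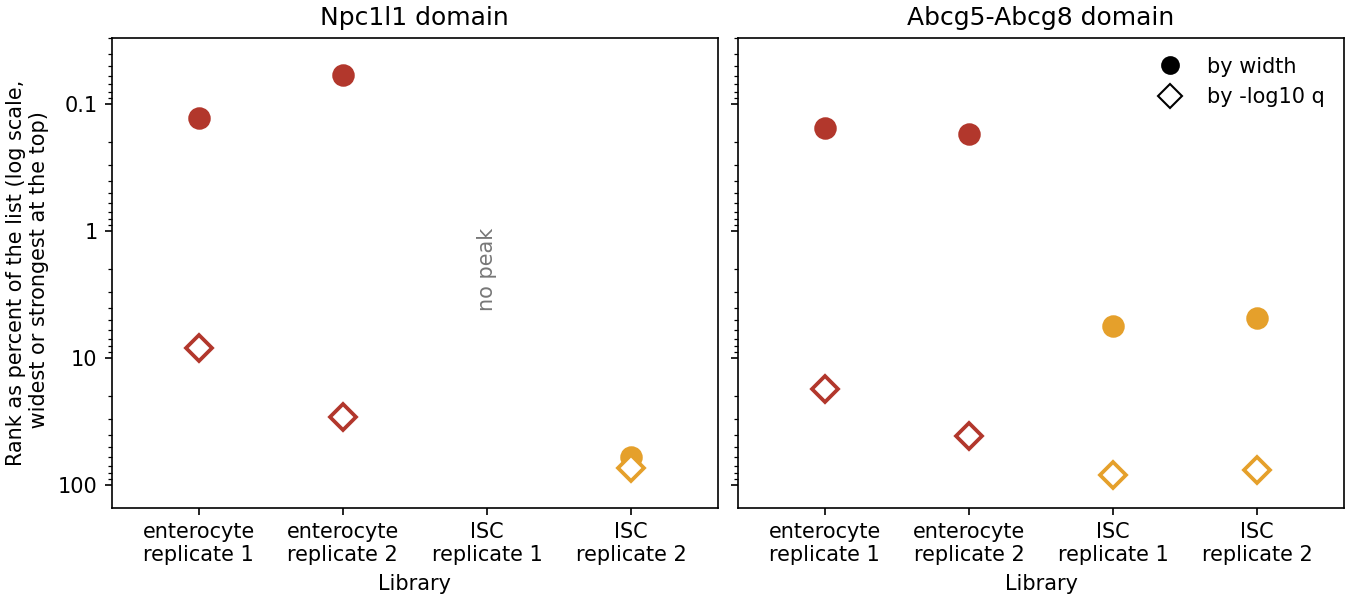
Rank of the Npc1l1 (left) and Abcg5-Abcg8 (right) domain peaks within their own list, as a percent of the list on a log axis with the widest or strongest at the top, by width (filled circles) and by −log10 q (open diamonds). The enterocyte peaks lie in the widest 0.0588% to 0.171% of their lists and the ISC peaks at 4.81% to 60% of theirs; ISC replicate 1 has no Npc1l1 peak.

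The enterocyte peaks contained the ISC peaks whole and reached beyond them mostly towards lower mm9 positions. At Abcg5-Abcg8, enterocyte replicates 1 and 2 reached 3308 and 3250 bp below the outermost ISC end, and 424 and 912 bp above it. At Npc1l1 they reached 5043 and 6141 bp below the single ISC peak and 869 and 1543 bp above it. The ends were close between replicates at Abcg5-Abcg8: the lower ends differed by 58 bp in enterocytes and 11 bp in ISC, and the upper ends by 488 and 355 bp. At Npc1l1 the enterocyte ends differed by 1098 bp on the lower side and 674 bp on the upper side. RefSeq places Npc1l1 and Abcg5 on the minus strand of GRCm38.p6 and Abcg8 on the plus strand; which gene body a domain's arm covers in mm9 was not analysed here.

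Peaks beside the Npc1l1 domain were not confined to adult cells. All 4 merged regions within 100000 bp of the window were called in all 8 libraries, as were 8903 of the 24352 merged regions of the series. The nearest below, from 6099127 to 6101084, had peaks averaging 1050 ± 53.7 bp for E12.5, 1690 ± 356 bp for E14.5, 1278.5 ± 214 bp for ISC and 1256.5 ± 105 bp for enterocytes (mean ± SD of 2 libraries). Its enterocyte and ISC lengths overlapped. The nearest above, from 6166553 to 6168572, was covered over 1335 bp ± 305.5 in enterocytes and 1501 bp ± 346.5 in ISC, which overlapped too. In the other 2, both enterocyte libraries were longer than both ISC libraries, as in the domain. This order was found in 15.9% of the 17679 regions called in at least 2 libraries. The region from 6173157 to 6175236 had 1393 and 2051 bp in enterocytes, against 1221 and 1371 bp in ISC, and the farthest, from 6191047 to 6194182, had 2904 and 2760 bp in enterocytes, against 1355 and 1578 bp in ISC. RefSeq lists Nudcd3 and Ddx56 as the protein-coding neighbours of Npc1l1, and no flanking region was assigned to a gene.

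The surroundings of Abcg5-Abcg8 held fewer peaks. Of 3 merged regions within 100000 bp of the window, the one from 85188122 to 85191070 was, like 8903 of all 24352, called in all 8 libraries. It was covered over 1576 and 1624 bp in enterocytes, against 2365 and 2759 bp in ISC, the opposite order to the domain. The region from 85025643 to 85026412 was called in every library but enterocyte replicate 1, at 221 to 678 bp. The nearest region below, from 85072770 to 85072970, was called in enterocyte replicate 2 alone. RefSeq gives Dync2li1 and Lrpprc as the neighbours of the gene pair.

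**Figure D4:**
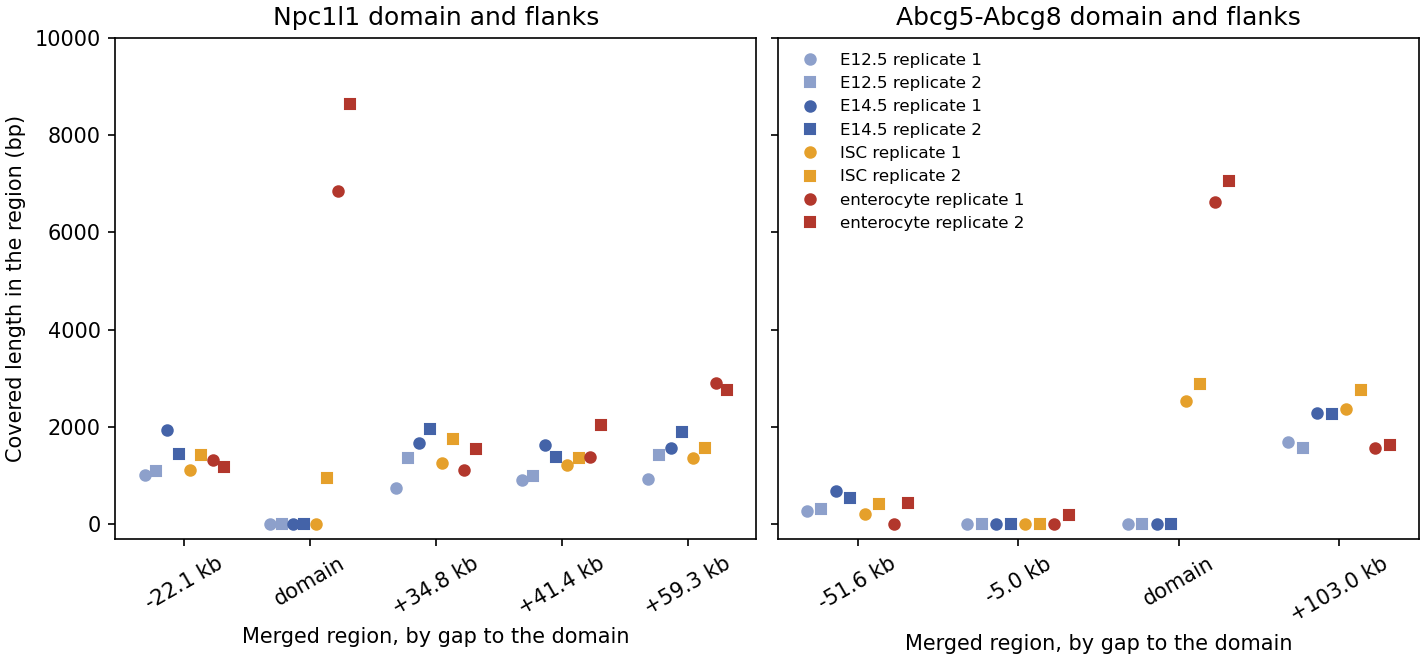
Covered length in bp of each domain and of the merged regions within 100000 bp of its window (horizontal axis, ordered by position and labelled by the gap to the domain in kb), for each of the 8 libraries. The flanking regions stay between 0 and 2904 bp, against 6618 to 8633 bp for the domains in enterocytes.

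Among the 741 regions with a peak in both enterocyte libraries and in no embryonic library, whose median length in enterocytes was 817.5 bp, the Npc1l1 domain was the 3rd longest and the Abcg5-Abcg8 domain the 4th. Of the 741, 369 had no ISC peak, 195 had one in 1 ISC library, like Npc1l1, and 177 in both, like Abcg5-Abcg8. Within the 177, Abcg5-Abcg8 was the 2nd longest in enterocytes and the 6th longest in ISC. Its length ratio of enterocytes over ISC was 2.53, which ranked 31, and the median ratio of the 177 was 1.36. Within the 195, Npc1l1 was the 2nd longest in enterocytes and the 25th longest in ISC. Its ratio of 16.3 ranked 10, beside a median of 3.37, with 1 ISC library at 0 bp.

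**Figure D5:**
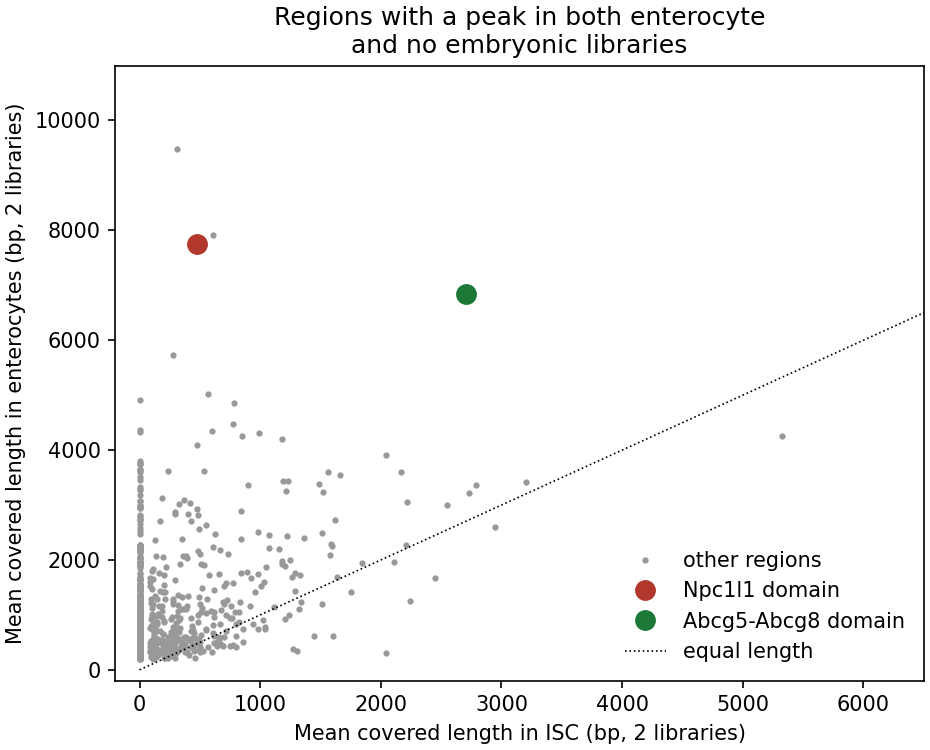
Mean covered length in enterocytes (vertical axis, bp) against that in ISC (horizontal axis, bp), each over 2 libraries, for the 741 regions with a peak in both enterocyte and no embryonic libraries; the dotted line marks equal length. The Npc1l1 domain lies at 7747 bp in enterocytes and 474.5 bp in ISC, and the Abcg5-Abcg8 domain at 6833 and 2703 bp.

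The regions most like each domain were found by Euclidean distance in log2(scaled covered bp + 200) over the 8 libraries. For Npc1l1 they were on chromosome 12 from 112654550 to 112664518 (distance 0.659), on chromosome 13 from 73832402 to 73838345 (0.879) and on chromosome 5 from 140293953 to 140299997 (1.17). All 3 shared its pattern of calls, with an ISC peak in replicate 2 alone, of 550 to 1566 bp. The chromosome 12 region had 9374 and 9593 bp in enterocytes. For Abcg5-Abcg8 the nearest were on chromosome 11 from 42969107 to 42972776 (1.33), on chromosome 2 from 163362693 to 163367561 (1.34) and on chromosome 7 from 26259149 to 26262711 (1.39). These were listed in all 4 adult libraries and were shorter in enterocytes, at 2943 to 4869 bp, against 6618 and 7048 bp for Abcg5-Abcg8. The 2 sterol domains were 4.11 apart, with 286 regions nearer to Npc1l1 and 154 nearer to Abcg5-Abcg8 than the other domain was.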

How the data were processed

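H3K4me3 ChIP-seq peak lists of 8 libraries were used; 4 input samples entered only as controls of the peak calls. Per the file headers, the authors called peaks per library with MACS 2.0.10.20130712 in broad mode against the input of the group, with a q-value cutoff of 0.01; the lists nevertheless hold peaks down to a −log10 q between 1.01 and 1.09. Per the submitters' processing notes, Bowtie 1.1.2, SAMtools 1.2 and the build mm9 were used. The deposited lists give for each peak its position and length, a pileup signal, a ratio to the local input (fold enrichment) and a −log10 p-value and −log10 q-value. They hold no read counts per region.

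Peaks overlapping a window by at least 1 bp were taken whole. Covered bp was divided by a factor per library, from 0.72 to 1.28, that equalized medians over the 8903 regions called in all 8 libraries. Log2(covered bp + 200) of the 17679 regions called in at least 2 libraries was fitted with limma 3.58.1 in R 4.3.3. All 4 groups were fitted together and share 1 estimate of the spread per region. In both domains the embryonic libraries were at 0 bp and add no spread to that estimate. The step was tested on simulated lengths without any at 0 bp, so that test does not cover the zeros of these domains. No log2 change is given where a group has 0 bp throughout. The loci and lists were chosen with earlier results of these data known, so the fit gives changes and SE without calls. Named were the 3 genes, the nearest region on each side of a window and the 3 regions most like each domain; the other flanking regions were named after their values were seen. A fixed list of other sterol and lipid genes, and the cell type markers, would have needed an mm9 annotation and were not used here. The alternatives were other pseudocounts, no scaling, quantile normalization, other minimum numbers of libraries, a replicate block, a −log10 q minimum of 10, lists of equal number (11111 peaks), lengths inside the windows, and each library left out.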

Additional observations from a re-analysis of the deposited data

How the results depend on the processing

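The ISC lengths depended on weak peaks. At a −log10 q minimum of 10, the Abcg5-Abcg8 window was at 0 bp in ISC, and in lists of equal number it was at 1265.5 bp. Its E14.5 libraries were at 0 bp under both, as were the ISC libraries at Npc1l1. Both settings drop weak peaks by construction. Under both, the enterocyte means were 7747 bp for Npc1l1 and 6833 bp for Abcg5-Abcg8. The log2 change of Npc1l1 (4.11) became 5.20 with a pseudocount of 50 bp and 2.68 with one of 1000 bp; with 1 ISC library at 0 bp, the pseudocount sets much of its size. That of Abcg5-Abcg8 (1.32) became 1.11 with the pseudocount of 1000 bp, 1.11 with quantile normalization, and 3.21 in lists of equal number, where 1 ISC library is at 0 bp; the cause of the change with quantile normalization was not tested. With each library left out in turn it ran from 1.29 to 1.37 for Abcg5-Abcg8 and from 2.92 to 4.21 for Npc1l1, which had no value without ISC replicate 2. Both loci were chosen with these lengths known, and every enterocyte domain peak was longer than every ISC one. The direction was thus largely fixed beforehand, and neither changed direction under any alternative that gave a value. At a −log10 q minimum of 10 neither domain had one, in lists of equal number Npc1l1 had none, and with at least 4 libraries Npc1l1 was not in the fit. Peaks inside the windows gave the lengths of whole peaks.

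The labels do not say that equal replicate numbers mark a pairing. Deviations of equal numbers correlated between groups at 0.02 to 0.31 across regions, and the highest value was that of enterocytes and ISC. In both of these groups replicate 1 had fewer total tags than replicate 2. The tags were 12821255 against 22137910 in enterocytes and 13355462 against 25547814 in ISC. The part of depth in this correlation was not tested. With the replicate block the changes were 4.11 ± 0.70 for Npc1l1 and 1.32 ± 0.14 for Abcg5-Abcg8 (SE). These SE too pool the embryonic libraries.

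The counts behind the shares of all regions moved by over 1.5 times in places. The 741 regions became 181 at a −log10 q minimum of 10 and 390 without enterocyte replicate 2. The 371 regions of ISC became 11 at that q and 682 without ISC replicate 1. The 2806 regions longer in enterocytes than in ISC became 1523 at that q, 5724 without ISC replicate 2 and 5748 without enterocyte replicate 1.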
